A study of Mus musculus with 6 samples.

Results

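Immune checkpoint genes, 6 in number, were followed through the 6 RNA-seq libraries of the mouse cervical carcinoma line U14: the receptor genes Pdcd1, Ctla4, Lag3, Btla and Cd160, and Cd274, which encodes the ligand PD-L1. They were chosen by symbol, and all 6 are among the 1722 genes of the authors' deposited table, which holds only genes called as changed. The compared groups were U14 cells labelled as overexpressing FOXP1 (3 libraries, numbered 2, 3 and 4 in the table) and wild-type U14 cells (3 libraries, numbered 1, 2 and 3). How FOXP1 was introduced, whether the overexpressing cells are 1 clone, and whether the wild-type cells carried an empty vector the labels used here do not state. No level of Foxp1, the forkhead transcription factor gene, was analysed, and the group labels are taken as given.

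Checkpoint receptors are brakes on lymphocytes. PD-1, the product of Pdcd1, and CTLA-4 appear on T cells after activation: PD-1 binds PD-L1 and PD-L2 on other cells and recruits phosphatases that dampen T cell receptor signalling, while CTLA-4 competes with the costimulatory receptor CD28 for CD80 and CD86. LAG-3 binds MHC class II, and BTLA and CD160 both bind HVEM, the product of Tnfrsf14. PD-L1 is made by many cell types, tumour cells and macrophages among them, and is induced by interferon-gamma through IRF1. Epithelial tumour cells are not known as a source of the CD3 chains, so Cd3e served as a T cell reference.

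The libraries held 16824351 to 20410060 fragments in overexpression and 17994311 to 18668395 in wild type, as rebuilt from the table. Nothing in the labels used here tells separate biological samples from repeat libraries of 1 sample. The p-values therefore speak only of the spread between these libraries, which may be technical. Overexpression library 4 carries a number that no sample title has and was placed in its group by its column name. Of 7 markers of epithelial cells, the labelled origin of the line, Krt18 was at 131 to 172 FPKM in overexpression and 322 to 394 FPKM in wild type (FPKM, fragments normalised to gene length and library total), Epcam at 3.30 to 8.97 FPKM in overexpression and 1.20 to 1.33 FPKM in wild type, and the other 5 were not in the table, so their levels are not known here. Leukocyte transcripts were present in every library of both groups. Whether these transcripts come from leukocytes in the material sampled was not tested. All 14 T cell markers were listed as higher in overexpression, beside 9.59% of all genes tested. Their summed level was 339.03 to 444.5 FPKM in overexpression and 97.5 to 147.6 FPKM in wild type, and none was at 0 in any library. In such bulk RNA, more cells of a type and more RNA per cell cannot be told apart.

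RefSeq start sites (GRCm38.p6) were at hand for 5 of the 6 genes, all but Lag3. The 250 bases before the start are shown for the receptor gene with the highest mean in overexpression, for the receptor gene whose wild-type libraries lay closest together, and for the ligand gene. Capitals mark GGAAA on either strand, the core letters bound by NFAT, a factor activated by T cell receptor signalling; matches may overlap other motifs.
Pdcd1, chr1:94052554-94052803, minus strand: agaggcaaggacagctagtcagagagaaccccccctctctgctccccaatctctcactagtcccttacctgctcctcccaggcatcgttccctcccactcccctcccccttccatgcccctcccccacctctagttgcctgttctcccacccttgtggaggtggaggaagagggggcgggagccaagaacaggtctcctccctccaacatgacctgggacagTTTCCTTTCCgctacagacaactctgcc
Ctla4, chr1:60908775-60909024, plus strand: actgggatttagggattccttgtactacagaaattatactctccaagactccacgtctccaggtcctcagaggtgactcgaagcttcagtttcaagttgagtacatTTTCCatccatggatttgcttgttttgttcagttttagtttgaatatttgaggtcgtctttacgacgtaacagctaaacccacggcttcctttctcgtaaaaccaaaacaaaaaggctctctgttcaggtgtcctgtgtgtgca
Cd274, chr19:29367188-29367437, plus strand: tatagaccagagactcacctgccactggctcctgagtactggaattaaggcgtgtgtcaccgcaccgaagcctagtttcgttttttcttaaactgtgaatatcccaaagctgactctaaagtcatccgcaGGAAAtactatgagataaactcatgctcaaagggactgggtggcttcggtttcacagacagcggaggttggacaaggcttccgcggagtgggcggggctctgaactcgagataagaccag

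Pdcd1 held 2 GGAAA matches, 28 and 23 bases before the start, and Ctla4 and Cd274 held 1 each. Of all 32817 RefSeq windows of this length, 55.6% held at least 1. The forkhead letters TGTTTAC were in none of the 6 windows of the 5 genes (3.16% of all windows), nor were the AP-1 letters TGANTCA (6.75%). The letters of the STAT-binding element, TTCNNNGAA, were in 1 of the 2 windows of Cd160 (7.01% of all windows). A missing match says only that these letters are not in these bases.

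All 5 receptor genes rose in overexpression. Each was listed as higher in the authors' deposited table, where 9.59% of 15689 tested genes were listed as higher. The number tested was not given as such and was worked out from the authors' q-value and p-value of the gene with the smallest p-value. In each receptor gene the lowest overexpression library lay above the highest wild-type library, as in 1389 (80.7%) of the 1722 listed genes. Of these 1722 genes 1505 were listed as higher and 217 as lower, and shares of the listed genes given below are over both. The genes were chosen with earlier results known, so neither their listing nor their lack of overlap is support for them.

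Pdcd1 (Entrez 18566), encoding PD-1, was at 26.6, 24.2 and 13.99 FPKM in overexpression libraries 2, 3 and 4, against 5.91, 6.96 and 4.43 FPKM in wild-type libraries 1, 2 and 3. Its overexpression libraries were uneven, with library 4 well below libraries 2 and 3, yet all lay above wild type. The means were 21.6 ± 6.69 FPKM in overexpression and 5.76 ± 1.27 FPKM in wild type (SD, n = 3 each), and the authors' deposited table gives a log2 fold of 1.86 with a q-value of 8.72e-08.

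Ctla4 (Entrez 12477), encoding the competitor of CD28, was at 13.4, 9.72 and 9.96 FPKM in overexpression libraries 2, 3 and 4, against 3.33, 3.17 and 2.87 FPKM in wild-type libraries 1, 2 and 3. Of the 5 receptor genes, its wild-type libraries had the smallest spread relative to their mean. The means were 11.0 ± 2.07 FPKM in overexpression and 3.12 ± 0.230 FPKM in wild type (SD, n = 3 each), and the authors' deposited table gives a log2 fold of 1.76 with a q-value of 1.46e-11.

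Lag3 (Entrez 16768), encoding the MHC class II receptor, was at 20.7, 17.5 and 18.8 FPKM in overexpression libraries 2, 3 and 4, against 4.95, 9.60 and 6.85 FPKM in wild-type libraries 1, 2 and 3. Here the overexpression libraries were the even ones and the wild-type libraries the spread ones. The means were 19.0 ± 1.60 FPKM in overexpression and 7.13 ± 2.34 FPKM in wild type (SD, n = 3 each), and the authors' deposited table gives a log2 fold of 1.35 with a q-value of 5.09e-06.

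Btla (Entrez 208154), whose product is found on B and T lymphocytes, was at 5.69, 5.65 and 2.84 FPKM in overexpression libraries 2, 3 and 4, against 0.815, 1.30 and 0.993 FPKM in wild-type libraries 1, 2 and 3. As with Pdcd1, overexpression library 4 was the lowest of its group. The means were 4.72 ± 1.64 FPKM in overexpression and 1.04 ± 0.245 FPKM in wild type (SD, n = 3 each), and the authors' deposited table gives a log2 fold of 2.14 with a q-value of 4.51e-08.

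Cd160 (Entrez 54215), whose product sits on natural killer cells and some T cells, was the lowest of the 6, at 1.53, 2.06 and 2.18 FPKM in overexpression libraries 2, 3 and 4, against 0.304, 0.953 and 0.820 FPKM in wild-type libraries 1, 2 and 3. Few fragments stand behind these values: 68, 111 and 102 in the overexpression libraries and 15, 47 and 39 in the wild-type libraries. The means were 1.92 ± 0.344 FPKM in overexpression and 0.693 ± 0.343 FPKM in wild type (SD, n = 3 each), and the authors' deposited table gives a log2 fold of 1.41 with a q-value of 0.0104, the largest q-value of the 6. In GENCODE M21, 68 bases of a Cd160 exon overlap an exon of Pdzk1 on the other strand, and the sources used here do not say whether strand was used in counting.

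The ligand gene Cd274 (Entrez 60533) also rose. It was at 42.7, 32.3 and 51.8 FPKM in overexpression libraries 2, 3 and 4, against 12.9, 17.1 and 18.6 FPKM in wild-type libraries 1, 2 and 3. Its highest library was overexpression library 4, the library in which Pdcd1 and Btla were lowest of the group. The means were 42.3 ± 9.79 FPKM in overexpression and 16.2 ± 2.98 FPKM in wild type (SD, n = 3 each). The authors' deposited table gives a log2 fold of 1.31 with a q-value of 1.65e-08; this fold was the smallest of the 6, and 36.1% of all genes listed as higher had a smaller one. Behind these values stand 2694 to 3763 fragments in overexpression and 984 to 1371 in wild type. Exons of the unnamed antisense gene AC119228.1 overlap those of Cd274 by up to 285 bases in GENCODE M21.

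In limma's moderated test on log2(FPKM + 1), adjusted by Benjamini-Hochberg across all listed genes, 5 of the 6 passed (adjusted p under 0.05, difference of at least 1 on the log2 scale), against 36.5% of the listed genes called higher. The differences were 1.71 ± 0.28 for Pdcd1, 1.53 ± 0.20 for Ctla4, 1.45 ± 0.26 for Btla, 1.34 ± 0.25 for Lag3 and 1.32 ± 0.25 for Cd274 (SE). Cd160 had a log2 difference of 0.80 ± 0.20 (SE) and a limma adjusted p of 0.00615, so it missed the fold threshold. A pseudocount of 1 shrinks the difference of so low a gene, and with 0.1 in its place it was 1.45 and passed. With 0.1, 79.1% of the listed genes were called higher. Without overexpression library 4 the same 5 passed, at 1.98 for Pdcd1, 1.59 for Ctla4, 1.72 for Btla, 1.34 for Lag3 and 1.16 for Cd274. In that fit 31.5% of the listed genes were called higher. Adjustment over the listed genes alone is lenient, because those genes had already been selected. Voom on rebuilt counts, adjusted over the listed genes, called all 6, and 81.6% of the listed genes. With voom adjusted over all 15689 genes, chosen after seeing the data, the 5 passed at adjusted p-values of 0.0262 to 0.0306 and Cd160 did not, at 0.0781; of the listed genes, 45.1% were called higher in that fit. Centring every library on its median over the listed genes takes out a common log2 shift of 0.81. After it, none of the 6 passed in limma (5 at an unadjusted p under 0.05), where 1.51% of the listed genes were called higher. In that fit Cd160 was at -0.01, and Ctla4 at 0.73 missed only the fold threshold (limma adjusted p 0.0230). The T cell reference Cd3e passed there, at 1.01 with a limma adjusted p of 0.00833.

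**Figure D1:**
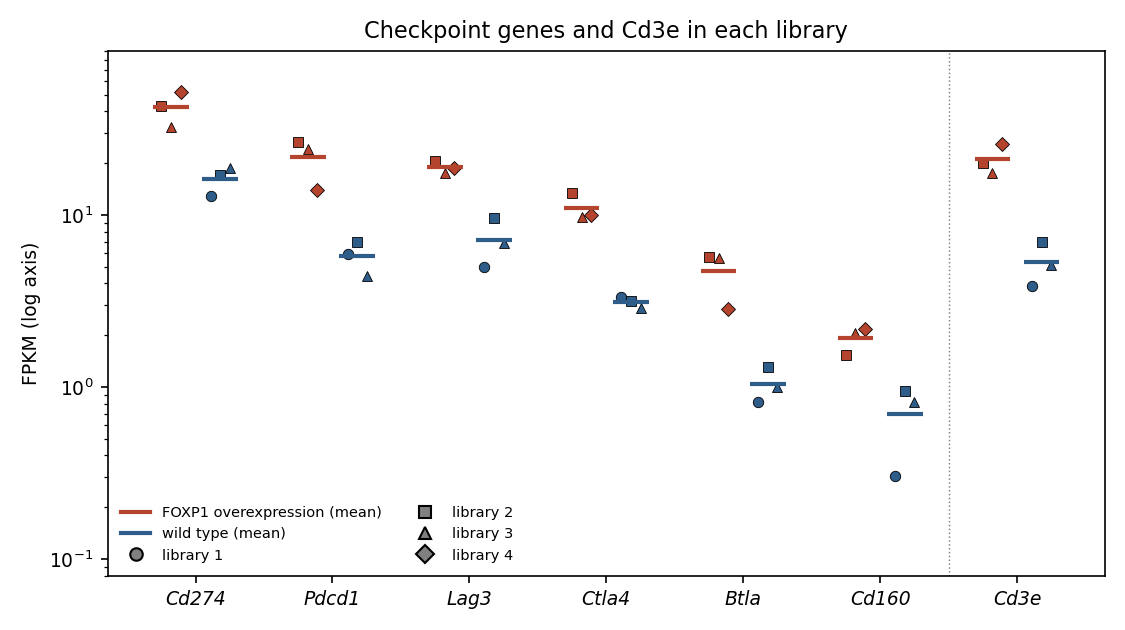
FPKM on a log axis of the 6 checkpoint genes and of Cd3e in each library, with overexpression in red left of wild type in blue; points are libraries and bars are group means (n = 3 each). The groups do not overlap for any of the 7 genes, and Cd274 has the highest mean of the 6 checkpoint genes in each group.

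The order of the levels was much the same in both groups. In overexpression it ran Cd274, Pdcd1, Lag3, Ctla4, Btla and Cd160, and in wild type Cd274, Lag3, Pdcd1, Ctla4, Btla and Cd160. Pdcd1 and Lag3 overlapped in each group, so their change of place is within the spread of the libraries. Btla and Cd160 overlapped in wild type, although Btla was above Cd160 in 3 of 3 wild-type libraries, and all other neighbours were apart. The 5 receptor genes summed to 67.9, 59.2 and 47.8 FPKM in overexpression libraries 2, 3 and 4, against 15.3, 22.0 and 16.0 FPKM in wild-type libraries 1, 2 and 3. In its make-up, Pdcd1 held 36.5% ± 6.26 of the sum in overexpression and 32.7% ± 5.51 in wild type, and Lag3 33.2% ± 5.38 in overexpression and 39.6% ± 6.33 in wild type (SD, n = 3 each). The shares of all 5 genes overlapped between groups.

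Within overexpression the 6 genes did not follow one order of libraries. Pdcd1 and Btla were lowest in library 4, at log2 ratios to the wild-type mean of 1.28 and 1.45, where libraries 2 and 3 were at 2.20 and 2.07 for Pdcd1 and at 2.46 and 2.45 for Btla. Cd274 and Cd160 were highest in library 4, at 1.68 and 1.65, as was Cd3e at 2.28. Of the 1505 genes listed as higher, 46.4% were highest and 19.9% lowest in library 4. Other lymphocyte genes were split too: of the 14 T cell markers 10 were highest and 2 lowest in library 4, and of the 6 B cell markers listed as higher 0 were highest and 4 lowest there. The helper T cell gene Cd4 was at 24.2, 27.3 and 18.2 FPKM in overexpression libraries 2, 3 and 4 (3.86 to 6.45 FPKM in wild type). Cd8a, the coreceptor of cytotoxic T cells, was instead highest in library 4, at 11.2, 12.9 and 23.1 FPKM in libraries 2, 3 and 4 (4.14 to 9.002 FPKM in wild type). The part of these cell type genes in the differences between libraries was not tested. In wild type, library 1 was lowest for Lag3, Btla, Cd160, Cd274 and Cd3e, as for 62.9% of the genes listed as higher, but not for Pdcd1 or Ctla4.

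**Figure D2:**
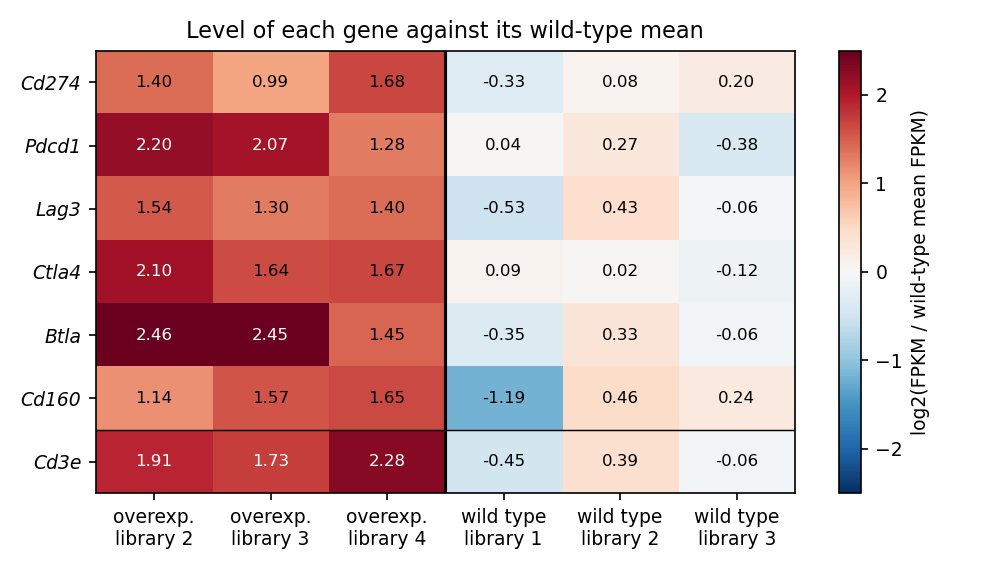
Each cell gives log2 of a gene's FPKM in a library over its mean FPKM in wild type, with the 3 overexpression libraries on the left and the 3 wild-type libraries on the right. Pdcd1 (1.28) and Btla (1.45) are lowest among overexpression libraries in library 4, where Cd274 (1.68) and Cd3e (2.28) are highest.

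Set against the T cell gene Cd3e in the same library, no difference of the receptor genes was detected between groups. Cd3e (Entrez 12501) was at 19.9, 17.6 and 25.8 FPKM in overexpression libraries 2, 3 and 4, against 3.88, 6.98 and 5.08 FPKM in wild-type libraries 1, 2 and 3. Exons of Gm48719, on the other strand, overlap those of Cd3e by up to 135 bases in GENCODE M21. The ratio of Pdcd1 to Cd3e was 1.33, 1.38 and 0.543 in overexpression libraries 2, 3 and 4, against 1.52, 0.996 and 0.871 in wild-type libraries 1, 2 and 3, so the groups overlapped. The ratio of Lag3 to Cd3e was 1.04, 0.997 and 0.729 in overexpression libraries 2, 3 and 4, against 1.28, 1.37 and 1.35 in wild-type libraries 1, 2 and 3. These did not overlap, and 35.7% of the listed genes likewise had every overexpression ratio below every wild-type ratio, counted over genes listed as higher or lower alike. In limma's test on log2(FPKM + 0.1) minus that of Cd3e, 0 of the 5 receptor genes passed an adjusted p under 0.05, and 0 an unadjusted p under 0.05. Of the listed genes 13.5% passed, 2 as higher and 231 as lower relative to Cd3e. The authors listed 217 genes as lower, which moved opposite to Cd3e, so 13.5% is not the share among genes that rose. That share was not counted. Voom was not run on these ratios.

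The intervals leave room for sizeable differences. Log2 ratios to Cd3e, overexpression minus wild type, were -0.13 for Pdcd1 (95% interval -0.995 to 0.731), -0.22 for Ctla4 (-0.97 to 0.54), -0.54 for Lag3 (-1.17 to 0.09), 0.05 for Btla (-0.84 to 0.94) and -0.54 for Cd160 (-1.32 to 0.24). Cd3e and the genes set against it were all selected as higher, so the ratios compare sizes of rise and are not independent of that selection. With a pseudocount of 1, which shrinks low genes most, Cd160 passed at -1.02, in a fit that called 74.2% of the listed genes lower relative to Cd3e. Single libraries set the sign of 3 of these ratios: over the 6 libraries left out in turn, the log2 ratio to Cd3e ran from -0.36 to 0.31 for Pdcd1, from -0.42 to 0.03 for Ctla4 and from -0.23 to 0.53 for Btla, the highest value of Pdcd1 and Btla being that without overexpression library 4 and that of Ctla4 without wild-type library 1.

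The ratio of Cd274 to Cd3e was lower in every overexpression library than in any wild-type library, but the difference did not pass the test. It was 2.15, 1.83 and 2.01 in overexpression libraries 2, 3 and 4, against 3.32, 2.46 and 3.66 in wild-type libraries 1, 2 and 3. The log2 difference of -0.62 (95% interval -1.26 to 0.01) had a limma adjusted p of 0.124. A ratio lower in overexpression without overlap was found for 35.7% of the listed genes, counted over genes listed as higher or lower alike. Without wild-type library 2 it was -0.79, with a limma adjusted p of 0.0383; in that fit 47.5% of the listed genes were called lower relative to Cd3e, against 13.4% with all libraries. Over all 6 single libraries left out the adjusted p ran up to 0.359.

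Set against Cd274, the receptor genes did not differ past the test either: 0 of 5 passed an adjusted p under 0.05 in limma, and 0 an unadjusted p under 0.05. Of the listed genes 13.2% passed, 9 as higher and 218 as lower relative to Cd274. With 217 genes listed by the authors as lower, 13.2% is not the share among genes that rose, which was not counted. The log2 ratios to Cd274, overexpression minus wild type, were 0.49 for Pdcd1 (95% interval -0.47 to 1.45), 0.41 for Ctla4 (-0.28 to 1.09), 0.08 for Lag3 (-0.54 to 0.70), 0.68 for Btla (-0.28 to 1.63) and 0.08 for Cd160 (-0.71 to 0.87). Without overexpression library 4 the log2 ratio of Btla to Cd274 was 1.16 with a limma adjusted p of 0.0355, in a fit that called 1.16% of the listed genes higher and 12.4% lower relative to Cd274. Without overexpression library 3 it was 0.33. The ratio of Pdcd1 to Cd274 was 0.94 without overexpression library 4, 0.20 without overexpression library 3 and 0.21 without wild-type library 3. The ratios of Lag3 and Cd160 to Cd274 changed sign with single libraries left out, from -0.04 to 0.27 for Lag3 and from -0.19 to 0.30 for Cd160. The summed receptors over Cd274 were 1.59, 1.84 and 0.922 in overexpression libraries 2, 3 and 4, against 1.19, 1.28 and 0.858 in wild-type libraries 1, 2 and 3, and the groups overlapped.

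**Figure D3:**
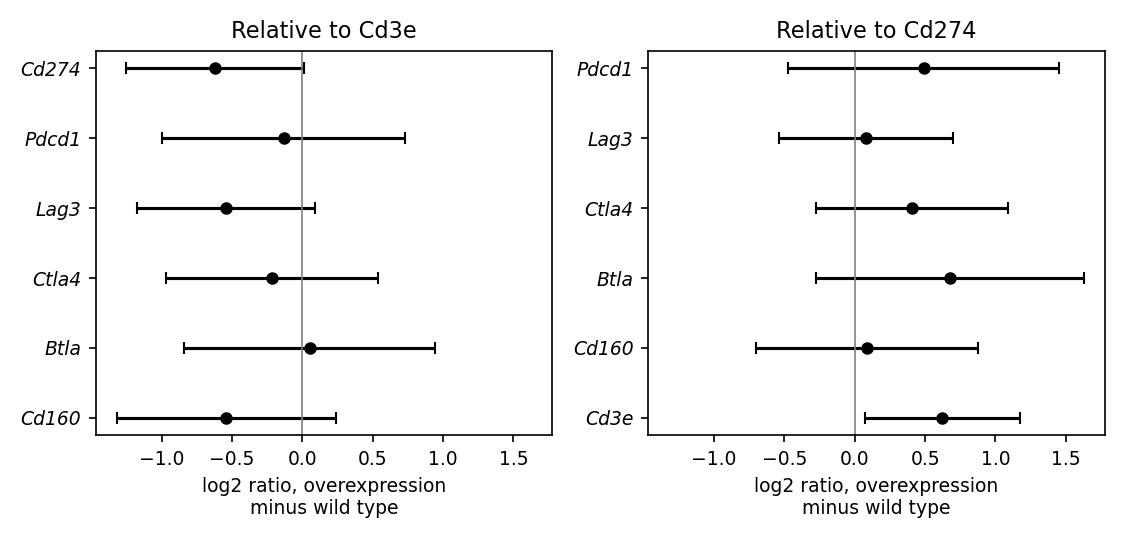
Log2 ratio of each gene to Cd3e (left) and to Cd274 (right), overexpression minus wild type, from limma on log2(FPKM + 0.1) over 6 libraries; points are estimates and bars 95% intervals. Every interval of a receptor gene crosses 0, and that of Cd274 relative to Cd3e runs from -1.26 to 0.01.

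Beyond the 5 receptor genes, a list of 14 inhibitory receptor genes held 3 more that rose: Cd5, Cd96 and Cd200r1. Thus 8 of 14 were listed as higher (57.1%, beside 9.59% of all genes tested) and none as lower. The other 6 were not listed (Tigit, Havcr2, Vsir, Cd244a, Lair1 and Klrg1). In the authors' deposited table the higher ones had a median log2 fold of 1.54, where all genes listed as higher had 1.46. The 8 include the 5 receptor genes, chosen with earlier results known, so neither the share nor the median is independent of that choice. Cd5, a damper of antigen receptor signalling, was at 12.8, 8.82 and 13.2 FPKM in overexpression libraries 2, 3 and 4, against 2.495, 5.11 and 3.41 FPKM in wild-type libraries 1, 2 and 3. Cd200r1, an inhibitory receptor of myeloid cells and T cells, was at 11.0 to 12.1 FPKM in overexpression and 3.005 to 4.56 FPKM in wild type.

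Of 16 checkpoint ligand genes, 4 rose (25%, beside 9.59% of all genes tested), 1 fell and 11 were not listed, Cd80, Cd86, Lgals9 and Cd276 among the last. Pdcd1lg2, encoding PD-L2, the other ligand of PD-1, was at 13.6, 14.3 and 11.6 FPKM in overexpression libraries 2, 3 and 4, against 2.496, 3.86 and 3.84 FPKM in wild-type libraries 1, 2 and 3. The authors' deposited table gives log2 folds of 1.90 for Pdcd1lg2 and 1.31 for Cd274, and the difference between these folds was not tested. Tnfrsf14, encoding the partner of BTLA and CD160, was at 16.2 to 22.0 FPKM in overexpression and 4.73 to 7.21 FPKM in wild type.

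The ligand gene that fell was Pvr, encoding CD155, which binds the inhibitory receptors TIGIT and CD96 and the activating receptor CD226. It was at 32.2, 27.4 and 31.6 FPKM in overexpression libraries 2, 3 and 4, against 63.9, 62.0 and 57.0 FPKM in wild-type libraries 1, 2 and 3, with no overlap. The authors' deposited table gives it a log2 fold of -1.07, where 1.38% of all genes tested were listed as lower, and limma's log2 difference was -0.98, just short of the fold threshold. Of the receptors of CD155, Cd96 was at 4.02 to 6.73 FPKM in overexpression and 1.25 to 2.23 FPKM in wild type, and Cd226 at 2.54 to 4.77 FPKM in overexpression and 0.331 to 0.817 FPKM in wild type.

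Genes of costimulatory receptors, which push T cells forward where checkpoints hold them back, rose as well. Of 12, 9 were listed as higher, none as lower and 3 were not listed (Tnfrsf9, Cd40 and Tnfrsf25), so 75.0% were higher beside 9.59% of all genes tested. The 9 had a median of 1.94 for the log2 fold of the authors' deposited table, beside 1.46 for all genes listed as higher. Cd28, which CTLA-4 competes with, was at 8.86, 4.57 and 5.64 FPKM in overexpression libraries 2, 3 and 4, against 1.22, 1.68 and 1.48 FPKM in wild-type libraries 1, 2 and 3. Icos, a relative of CD28, was at 7.58 to 14.1 FPKM in overexpression and 2.05 to 2.43 FPKM in wild type. Tnfrsf4 and Tnfrsf18, encoding OX40 and GITR, were at 19.6 to 26.1 and 17.9 to 35.8 FPKM in overexpression and at 7.29 to 8.005 and 7.81 to 12.2 FPKM in wild type.

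Of 17 genes of phosphatases and transcription factors linked to inhibited T cells, 8 rose (47.1%, beside 9.59% of all genes tested), none fell and 9 were not listed. Tox, a factor of T cell exhaustion, was at 2.94 to 3.51 FPKM in overexpression and 0.448 to 1.32 FPKM in wild type, and Nfatc1, an NFAT factor, at 7.84 to 10.4 FPKM in overexpression and 2.51 to 3.67 FPKM in wild type. Irf4 rested on overexpression libraries 2 and 4, at 31.5 and 23.1 FPKM, with library 3 at 6.38 FPKM and wild type at 3.68 to 5.10 FPKM. The phosphatase genes Ptpn6 and Ptpn11, through which PD-1 signals, were not listed, nor was Foxp3, the factor of regulatory T cells.

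Of 19 genes of interferon-gamma signalling and of PD-L1 regulation, 1 rose, 1 fell and 17 were not listed, Irf1, Jak2, Socs1 and Cmtm6 among them. The share listed as higher, 5.26%, stood beside 9.59% of all genes tested. Ifng itself, encoding the inducer of PD-L1, was at 3.93, 4.21 and 8.52 FPKM in overexpression libraries 2, 3 and 4, against 0.487, 2.04 and 1.15 FPKM in wild-type libraries 1, 2 and 3. The order of libraries was in part that of Cd274. Both genes were highest of their group in overexpression library 4 and lowest of their group in wild-type library 1. Ifng was lowest in overexpression library 2 and highest in wild-type library 2, where Cd274 was lowest in overexpression library 3 and highest in wild-type library 3. The part of Ifng in the level of Cd274 was not tested. Myc, which can raise PD-L1 transcription, fell to 89.0 to 137 FPKM in overexpression, against 189 to 242 FPKM in wild type.

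**Figure D4:**
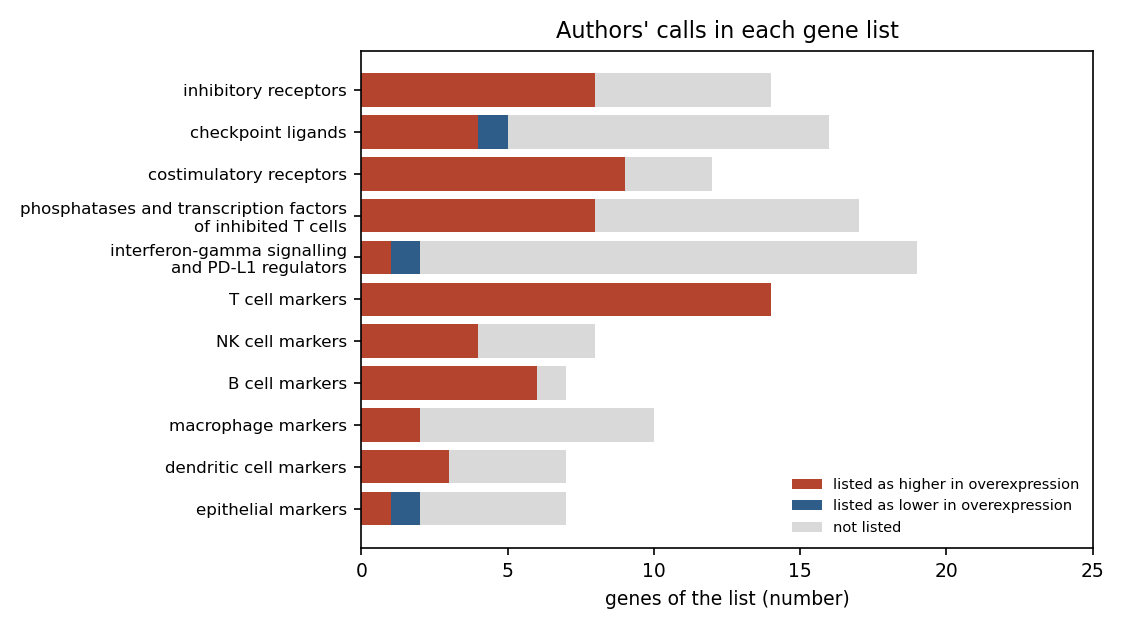
Number of genes of each list that the authors' deposited table gives as higher (red) or lower (blue) in FOXP1 overexpression, or does not list (grey). T cell markers are all listed as higher (14 of 14), beside 9.59% of all genes tested. Of the interferon-gamma list, 17 of 19 genes are not listed.

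Markers of other leukocytes that carry these receptors or ligands were listed in part, and where listed they were higher. The part of these markers in the checkpoint values was not tested beyond the ratio to Cd3e. The sums given hold only the listed markers, which were selected as changed, and 9.59% of all genes tested were listed as higher. Of 8 natural killer markers 4 were listed as higher, summing to 73.7 to 97.3 FPKM in overexpression and 25.5 to 45.8 FPKM in wild type. Of 7 B cell markers 6 were listed as higher, summing to 107 to 280 FPKM in overexpression and 25.03 to 47.9 FPKM in wild type. Of 7 dendritic cell markers 3 were listed as higher, summing to 5.17 to 7.46 FPKM in overexpression and 1.32 to 2.19 FPKM in wild type. Of 10 macrophage markers only Lyz2 and Cd68 were listed, as higher, summing to 5468 to 7583 FPKM in overexpression and 1049 to 1651 FPKM in wild type. None of the listed markers was at 0 in any library.

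The genes most like Cd274 over the 6 libraries, by Pearson's r of log2(FPKM + 0.1), were Mcoln2, Tle4, Carmil1, Prex1 and Dmxl2, with r of 0.997 to 0.999. Those most like the summed receptors were Tnfsf11, Izumo1r, Gpr183, Sla2 and Fam169b, with r of 0.990 to 0.997. No gene was named for both patterns. All 1287 genes compared were selected for differing between the same groups, and 53.9% of them had r above 0.9 with Cd274 and 41.5% with the summed receptors, so a high r is common here.

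In the annotation that the authors deposited with the table, all 6 checkpoint genes carry the term adaptive immune response, as do 74 of the 1722 listed genes, and all 74 are listed as higher, in a table where 87.4% of the genes are. Ctla4, Btla and Cd274 carry negative regulation of T cell proliferation, a term of 14 listed genes, likewise all listed as higher beside that 87.4%.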

How the data were processed

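Poly(A)-selected RNA of 6 U14 libraries was sequenced as paired ends, per the labels' protocols. Per the submitters' processing notes, Trimmomatic, HISAT2 and DESeq were used with build hg19, although symbols and Entrez identifiers are mouse ones; the read counter is not stated. The deposited expression values were taken as the authors' FPKM from the numbers themselves: a length per gene and a total per library turn 100% of 10332 values into whole counts, within 0.01. The authors' columns also hold, per the file headers, mean signal per group (counts over DESeq2 size factors), a fold ratio and its log2, and a p-value with its q-value; every gene has q under 0.05 and changes at least 2 times.

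Values were tested with limma 3.58.1 in R 4.3.3 (trend, Benjamini-Hochberg over listed genes), on log2(FPKM + 1) between groups and on log2(FPKM + 0.1) for ratios to Cd3e or Cd274; voom on rebuilt counts used the authors' size factors. The steps were tested on simulated data. The plan had assumed normalised values and was kept. Libraries of 1 group differed beyond sampling noise (chi-square over its degrees of freedom 14.7 to 171). The 6 genes and the 12 gene lists were chosen with earlier results of these data known. Genes named are the 6, Cd3e, listed genes of those lists, and the 5 most correlated genes of 2 patterns (predicted genes left out, at least 1 FPKM in the higher group). Some genes of the lists are counted but not reported by name here.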

Additional observations from a re-analysis of the deposited data

How the results depend on the processing

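The count of checkpoint genes called higher in limma was 5 of 6 on all libraries and 5 without any single library, and 6 with a pseudocount of 0.1 or with voom on rebuilt counts. Of the listed genes, 36.5% were called higher on all libraries and 26.5% to 40.0% without single libraries. With a pseudocount of 0.1 the share was 79.1%, and with voom 81.6%. The count of checkpoint genes was 0 after median centring, which called 1.51% of the listed genes higher and where the log2 difference of Cd160 was -0.00526. Centring sets the median of genes selected as changed to 0. The authors' threshold tightened to q under 0.01 and at least 2.5-fold kept 4 of the 6, losing Cd160 and Cd274; of all genes listed as higher it kept 47.5%. For ratios to Cd3e the count of receptor genes was 0 on all libraries and without any single library, and 1 with a pseudocount of 1 (Cd160, with 74.2% of the listed genes called lower). For ratios to Cd274 it was 0 on all libraries and 0 to 1 without single libraries, the 1 being Btla without overexpression library 4. The lower count after centring follows from how centring is built, and a larger pseudocount shrinks low genes by its construction; the cause was not tested in the other cases. With the replicate number as a block (replicate block), 5 of the 6 were called, Cd160 not, and the log2 difference of Cd274 was 1.02. The limma adjusted p-values of the 5 were 0.0474 to 0.0485, and 20.7% of the listed genes were called higher. Overexpression library 4 and wild-type library 1 share their numbers with no other library, so that fit rests on libraries 2 and 3 of each group. Deviations of same-numbered libraries from their group means correlated at 0.02 and 0.08, so no pairing by the numbers 2 and 3 was seen. Those means also hold the libraries without a shared number, so these values cannot exclude pairing. Depth limits Cd160 most, with 15 fragments in wild-type library 1.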
